A study of Mus musculus with 8 samples.

Results

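*C1qa*, *C1qb*, *C1qc*, *Hmox1*, *Fcna*, *Vcam1*, *Spic*, *Mrc1*, *Marco* and *F13a1* are genes that macrophages of the bone marrow are known for, and here they were followed in pro-B cells sorted from that marrow. They are 10 of the 24746 genes in the deposited count table and were found by their symbols. They had been picked as a measure of macrophage RNA carried along in the sort, for a lower trend in miR-15 deficient cells that had already been seen in these same libraries. Their differences between the genotypes are therefore given as a description, and where the fit across all genes puts some of them past its threshold, nothing is read from it. The data only partly fit that description, since 8 of the genes lay lower in DKO cells, *F13a1* lay higher, and *Marco* was all but absent.

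The sorted pro-B cells, early B lineage cells that assemble their heavy chain, were isolated by FACS from 4 double knockout mice (DKO, genotype miR-15a/b fl/fl Vav-Cre), in which the miR-15a/16-1 and the miR-15b/16-2 clusters carry loxP sites on both alleles. The control cells came from 4 mice with intact clusters (miR-15a/b+/+ Vav-Cre). Both groups thus carried Vav-Cre, a recombinase driven in the whole hematopoietic system and not only in the B lineage, and both were 10 to 12 weeks old and of the C57BL/6 background. The floxed alleles were made in embryonic stem cells of mixed strain background, and each mouse gave 1 library of RNA amplified by the SMART-seq protocol. The libraries are named here after the group and number in their labels, DKO 1 to DKO 4 and control 1 to control 4.

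Macrophages of the marrow sit at the centre of islands of red cell precursors, take up expelled nuclei and aged red cells, and recycle the iron of their heme. They are also a main source of the C1q in the tissue, the molecule that recognizes targets for the classical complement pathway, and bear lectins and scavenger receptors that bind sugars, microbes and debris. Pro-B cells are not known for these functions.

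The libraries held 38073065 to 43288133 counts in DKO and 38257907 to 41530921 counts in control mice. *Dleu2*, the non-coding host of the miR-15a/16-1 cluster, had 6986 to 9210 counts in DKO and 1404 to 1762 in control libraries, and *Mir16-1* had no read in any DKO library against 5, 1, 2 and 4 reads in control 1 to control 4. The 15 markers of pro-B cells summed to 35700 to 39300 CPM in DKO and 33600 to 37700 CPM in control libraries (CPM, counts scaled to library sizes normalized by TMM). *Xist*, transcribed from the inactive X chromosome of females, was at or below 0.14 CPM of all counts in DKO 3, DKO 4 and control 1, and between 71.1 and 97.1 CPM in the other 5 libraries. The labels give no sex, so both classes of libraries are shown separately where it matters.

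The miRNAs removed from the DKO mice share 1 seed, the bases 2 to 8 by which they find their targets. Their mature sequences from RefSeq (GRCm38.p6) are shown with the seed in capitals, because sites for it are the sequence feature by which a transcript could be a direct target in any cell that deleted the clusters.
miR-15a-5p: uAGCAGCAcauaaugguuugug
miR-15b-5p: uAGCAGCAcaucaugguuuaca
miR-16-5p: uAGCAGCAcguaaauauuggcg
Matches to the seed were few in the 3' UTRs of the 10 genes (longest annotated form, GENCODE M21). None held TGCTGCT, the complement of the whole seed, or its form GCTGCTA with an adenine opposite base 1, and only *C1qc* and *Vcam1* held the 6 bases GCTGCT alone. These weakest sites are printed with the match in capitals.
C1qc: aacggcagGCTGCTtccagccccc
Vcam1: caggtgggtgGCTGCTgttctcaaat
The site of *C1qc* starts at base 9 of a UTR of 239 bases, and that of *Vcam1* at base 527 of 1404. Over 21020 genes with an annotated 3' UTR, 61.5% held no match, 15.2% held the 6 bases at most, and the remainder held a longer match. The UTRs of the 10 genes run from 121 bases for *Marco* to 1587 for *F13a1*, and these shares make no allowance for length. The matches are letters in a sequence and say nothing about binding.

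*C1qa*, *C1qb* and *C1qc* encode the 3 chains of C1q and lie next to each other on chromosome 4 of GRCm38 (chr4:136895916-136898844, chr4:136880145-136886177 and chr4:136889802-136892914). *C1qb*, the most abundant of the 3 per length, had 3.61, 2.77, 10.5 and 12.6 CPM in DKO 1 to DKO 4, against 12.0, 33.1, 11.0 and 16.7 CPM in control 1 to control 4. Thus DKO 1 and DKO 2 lay below all others, DKO 4 reached above control 1 and control 3, and control 2 stood highest. *C1qc* had 3.00, 2.56, 9.02 and 11.1 CPM in the DKO libraries and 9.81, 30.8, 10.2 and 12.4 CPM in the control libraries, again with DKO 4 above 2 of the controls. *C1qa* had 1.43, 0.785, 3.77 and 4.34 CPM in the DKO libraries, against 4.02, 16.7, 5.06 and 6.80 CPM in the control libraries. Here only DKO 4 reached into the range of the controls, above control 1.

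On the log2 scale, C1qa differed by -1.66 between DKO and control (standard error 0.56), C1qb by -1.31 (standard error 0.49) and C1qc by -1.30 (standard error 0.51). The trio moved together, and its summed level was 8.04, 6.12, 23.3 and 28.1 CPM in DKO 1 to DKO 4 and 25.8, 80.6, 26.3 and 35.9 CPM in control 1 to control 4. This is a 13.2-fold range over the 8 libraries. The ratio of the chains to each other was far steadier. Per kb of exon, *C1qb* stood at 2.71 ± 0.503 times the level of *C1qa* (SD over the 8 libraries, from 2.02 to 3.60), and *C1qc* at 0.744 to 0.939 times the level of *C1qb*. *C1qa* made up 12.8% of the 234 C1q counts of DKO 2 (95% exact binomial interval 8.82 to 17.8%), the library with the lowest share, and 20.7% of the 3287 counts of control 2 (19.3 to 22.1%), the one with the highest. These intervals take every count as independent, and counts of 2 mates of a fragment would widen them.

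*Hmox1* and *Spic* belong to the handling of heme. *Hmox1* (chr8:75093618-75100593) encodes heme oxygenase, the enzyme that opens the heme ring and releases its iron, and had 1.53, 1.62, 4.20 and 5.25 CPM in DKO 1 to DKO 4, against 7.88, 20.6, 10.5 and 9.67 CPM in control 1 to control 4. No DKO library reached the lowest control, so the groups did not overlap. Its means were 3.15 ± 1.87 CPM in DKO and 12.2 ± 5.75 CPM in control cells (SD, n = 4 each), which puts its log2 fold change at -1.95 (standard error 0.44).

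*Spic* (chr10:88675270-88683023) encodes a transcription factor of the ETS family that heme induces and that iron-recycling macrophages need. It had 0.647, 0.366, 1.69 and 1.53 CPM in DKO 1 to DKO 4 and 1.67, 6.77, 2.65 and 3.86 CPM in control 1 to control 4, where DKO 3 lay just above control 1. These levels rest on 14 to 71 counts per library in DKO and 64 to 276 in control cells, and the log2 fold change was -1.82 (standard error 0.54).

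Of the 3 genes for lectins and scavenger receptors, *Fcna* was the most abundant per length. It encodes ficolin A, a secreted lectin that starts the lectin pathway of complement, and lies on chromosome 2 (chr2:25624667-25627974). *Fcna* had 1.48, 1.41, 3.15 and 2.89 CPM in DKO 1 to DKO 4, against 5.79, 16.9, 7.45 and 5.73 CPM in control 1 to control 4. Every DKO library lay below every control library, and the log2 fold change of -2.01 (standard error 0.41) was the farthest below 0 of the 9 genes fitted.

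*Mrc1* (chr2:14229414-14332023) encodes the mannose receptor CD206 and was low throughout. Its level was 0.508, 0.157, 1.12 and 0.992 CPM in DKO 1 to DKO 4, against 1.20, 1.96, 1.13 and 1.13 CPM in control 1 to control 4. The groups did not overlap, but 47 counts in DKO 3 and 44 in control 4 show how narrow the gap was, and the log2 fold change was -0.96 (standard error 0.53). *Marco* (chr1:120474538-120505084), a scavenger receptor of macrophages that meet microbes in the spleen and lung, had no read in 7 libraries and 6 reads in control 2. At these depths, a count of 0 allows a level of up to 0.0693 to 0.0788 CPM of all counts (3 counts of the library). This limit takes every count as independent, and counts of 2 mates of a fragment would raise it. *Marco* could therefore not be compared and was not fitted.

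*Vcam1* (chr3:116110020-116129688) encodes an adhesion molecule by which macrophages and stromal cells hold blood cell precursors through their integrins, and is thus shared by both cell types. It had 1.85, 0.602, 3.48 and 3.32 CPM in DKO 1 to DKO 4 and 3.21, 14.98, 4.36 and 4.12 CPM in control 1 to control 4. DKO 3 and DKO 4 lay above control 1 but below the other 3 controls, and the log2 fold change was -1.53 (standard error 0.58).

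*F13a1* (chr13:36867178-37050244), which encodes the A chain of coagulation factor XIII, a cross-linking enzyme also made by monocytes and megakaryocytes, differed in the other direction. It had 57.6, 57.0, 59.4 and 55.0 CPM in DKO 1 to DKO 4, against 38.6, 48.2, 44.9 and 41.0 CPM in control 1 to control 4. All 4 DKO libraries lay above all 4 controls, with means of 57.3 ± 1.82 CPM in DKO and 43.2 ± 4.24 CPM in control cells (SD, n = 4 each) and a log2 fold change of 0.41 (standard error 0.10). Per kb of exon it was the most abundant of the 10 genes in DKO cells, at 14.6 CPM per kb, but came after *C1qb* and *C1qc* in control cells, at 11.0 CPM per kb. *C1qb* had 6.93 and *C1qc* 6.10 CPM per kb in DKO cells, against 17.1 and 14.99 CPM per kb in control cells, and *Mrc1* was the lowest that passed the filter on low counts, with 0.131 and 0.254 CPM per kb.

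**Figure D1:**
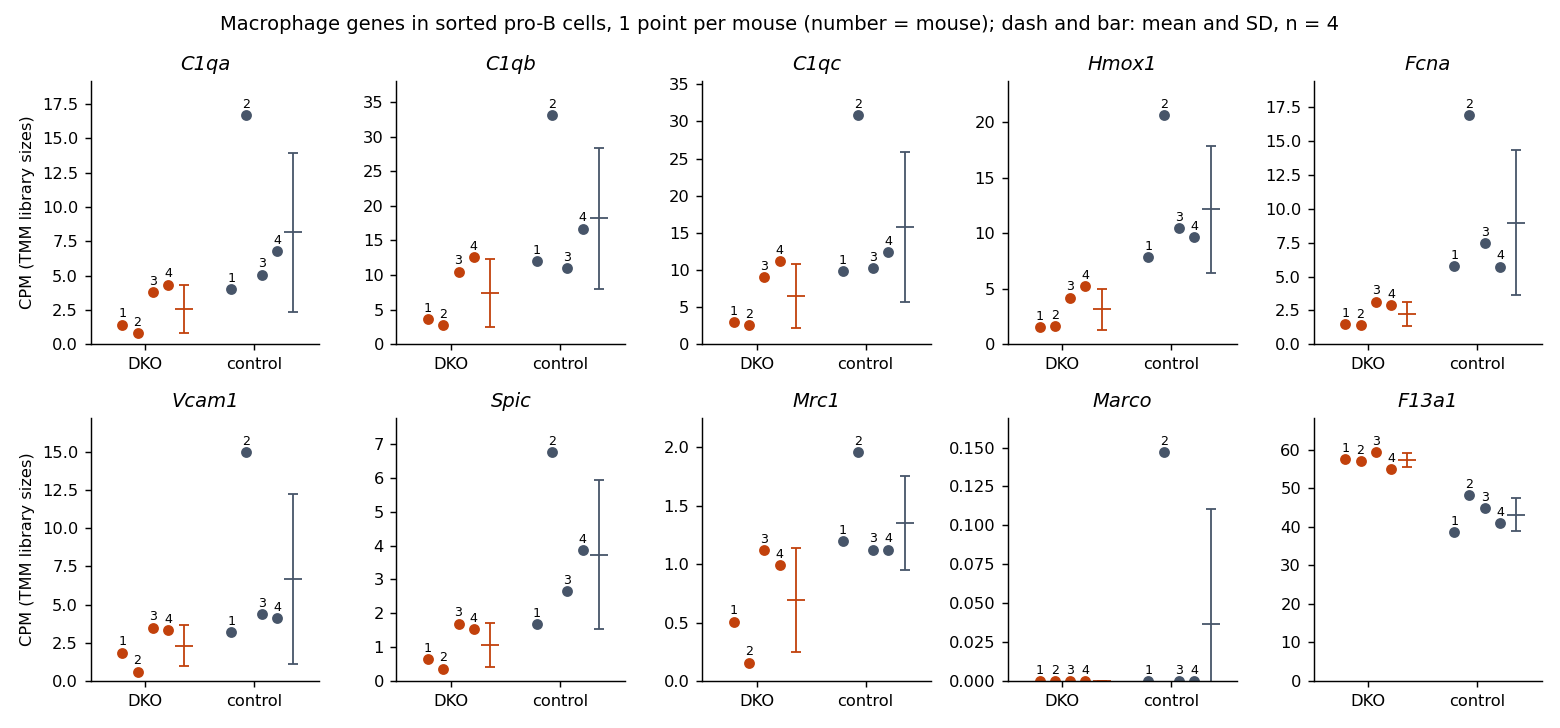
Level of each gene in CPM at TMM library sizes (vertical axes, a different scale per gene) in the 4 DKO and 4 control libraries; each point is 1 mouse with its number, and the dash with its bar gives the mean and SD of the group. Control 2 is the highest point for C1qa, C1qb, C1qc, Hmox1, Fcna, Vcam1, Spic and Mrc1, Marco has reads in control 2 only, and all DKO points of F13a1 lie between 55.0 and 59.4 CPM, above the controls.

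Across all genes, the quasi-likelihood test of edgeR, at a Benjamini-Hochberg adjusted p under 0.05, called 4.58% of 12714 genes, 1.93% lower and 2.65% higher in DKO cells. Of the 10 genes, 9 passed the filter on low counts, and 3 of these were past the threshold: *Hmox1* and *Fcna* lower and *F13a1* higher. As the genes had been chosen on this comparison, nothing is read from that count. In fits that each left out 1 mouse, *Fcna* missed the threshold without DKO 1 or without DKO 2, *Hmox1* kept it only without DKO 4 or control 1, and *F13a1* only without control 1 or control 2. *Hmox1*, *Fcna*, *Mrc1* and *F13a1* were the 4 genes whose groups did not overlap, as was the case for 13.8% of all genes tested. The median log2 fold change was -1.53 over the 9 genes and -0.01 over all genes tested. Which cells the RNA of these genes came from was not tested. Even for macrophage RNA, bulk samples cannot tell fewer macrophages in the sorted cells from less RNA of these genes per macrophage.

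The 8 genes other than *F13a1* and *Marco* shared their highest and their lowest libraries, while the order of those between differed from gene to gene. All 8 were highest in control 2, all 8 had DKO 1 and DKO 2 as their lowest libraries, and DKO 2 was the lowest for 7 of them. Their summed level was 14.1, 10.3, 36.9 and 42.0 CPM in DKO 1 to DKO 4, against 45.6, 142, 52.3 and 60.4 CPM in control 1 to control 4, a 13.8-fold range. DKO 3 and DKO 4 thus stood near the controls other than control 2, while DKO 1 and DKO 2 stood apart from both. The log2 ratio of the group means of this sum was -1.54. Summed over all 10 genes, where *F13a1* weighs most, the level was 71.6, 67.3, 96.4 and 97.1 CPM in the DKO libraries and 84.2, 190, 97.2 and 101 CPM in the control libraries, with a log2 ratio of -0.51.

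**Figure D2:**
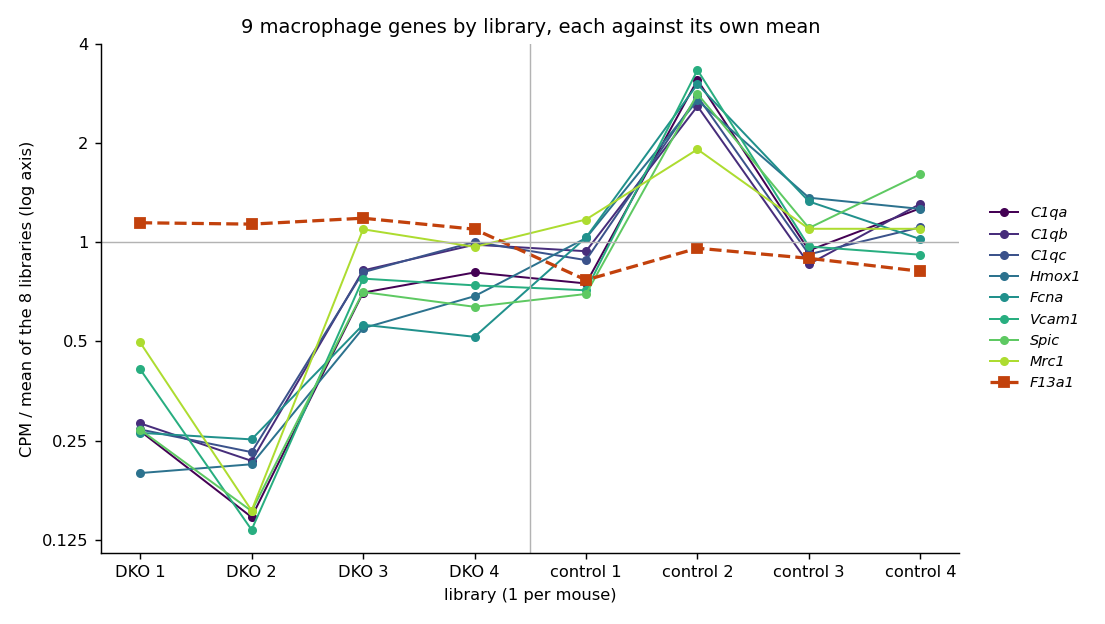
CPM of 9 genes in each library divided by that gene's mean over the 8 libraries (log axis), DKO libraries on the left and control libraries on the right; each line is 1 gene. The 8 solid lines run together, lowest in DKO 1 and DKO 2 and highest in control 2, whereas F13a1 (dashed) spans 1.54-fold and is higher in every DKO library.

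The likeness of the genes was also described after the mean of each genotype had been taken out, as the Pearson correlation of log2 CPM (plus 0.1) with *C1qa* over the 8 libraries. All points share libraries and depth, control 2 weighs strongly, and no test was made. The correlation was 0.979 for *C1qb*, *C1qc* and *Spic*, 0.959 for *Vcam1*, 0.946 for *Hmox1*, 0.908 for *Fcna* and 0.899 for *Mrc1*. *F13a1* stood at 0.458 and ranked only 2034th of the 11274 genes with at least 1 CPM. The ratio of *F13a1* to *C1qa* per kb accordingly spanned 25.1-fold, lowest in control 2 and highest in DKO 2, whereas that of *Spic* to *C1qa* spanned 1.61-fold, from 0.301 to 0.486.

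Among genes outside the 10, *Gyg* (0.993), *Idh3g* (0.986), *Cfp* (0.979), *Atp6ap2* (0.976), *Dcaf11* (0.975), *Gas2l1* (0.974), *Axl* (0.965), *1700037H04Rik* (0.959), *Nme7* (0.958) and *Tlr2* (0.956) were most like *C1qa*. *Cfp*, which encodes properdin of the alternative complement pathway, had 2.80, 2.09, 6.20 and 6.91 CPM in DKO 1 to DKO 4 and 6.37, 13.3, 5.72 and 8.05 CPM in control 1 to control 4. *Axl*, a receptor for the uptake of dead cells, had 0.971, 0.576, 1.67 and 2.14 CPM in the DKO libraries and 1.77, 5.83, 3.05 and 2.56 CPM in the control libraries. Both had control 2 highest and DKO 2 lowest, as 7 of the 8 genes had. *Idh3g*, by contrast, ran only from 356 to 401 CPM over all libraries, so a high correlation over 8 libraries does not require a like size of change.

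The fold changes were also computed within each of the classes that *Xist* separates. In the 5 libraries with *Xist*, DKO 1 and DKO 2 over control 2, control 3 and control 4, the log2 fold change was -3.08 for *C1qa*, -2.66 for *C1qb*, -2.67 for *C1qc*, -3.10 for *Hmox1*, -2.79 for *Fcna*, -2.65 for *Vcam1*, -3.11 for *Spic* and -2.05 for *Mrc1*. In the 3 libraries without *Xist*, DKO 3 and DKO 4 over control 1, it lay between -0.19 and 0.08 for *C1qa*, *C1qb*, *C1qc*, *Vcam1*, *Spic* and *Mrc1*. There, *Hmox1* stood at -0.75, *Fcna* at -0.94 and *F13a1* at 0.56, against 0.36 for *F13a1* in the libraries with *Xist*. The mean of *Hmox1* in these 3 libraries was 4.73 CPM in DKO and 7.88 CPM in control cells, and that of *C1qb* 11.5 CPM in DKO and 12.0 CPM in control cells.

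A fit of all genes with the genotype, the *Xist* class and their interaction was also made. By edgeR's quasi-likelihood test, after Benjamini-Hochberg correction, it called 0.0157% of 12714 genes, or 2 genes, and none of the 9 macrophage genes, while 7 of the 9 and 1681 of all genes had an unadjusted p under 0.05. The 9 genes had been chosen on these same libraries and only 1 control library was without *Xist*, so nothing is read from these counts for the macrophage genes. Within the DKO group the low libraries are those with *Xist*, so that the mouse and the *Xist* class cannot be told apart there.

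Control 2 carried a part of the difference as well. Without it, the log2 fold change was -1.04 for *C1qa*, -0.85 for *C1qb*, -0.75 for *C1qc*, -0.75 for *Vcam1*, -1.57 for *Hmox1*, -1.51 for *Fcna*, -1.37 for *Spic* and -0.73 for *Mrc1*, each nearer to 0 than with all 8 libraries. *F13a1* was 0.46 higher in DKO cells without this library.

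**Figure D3:**
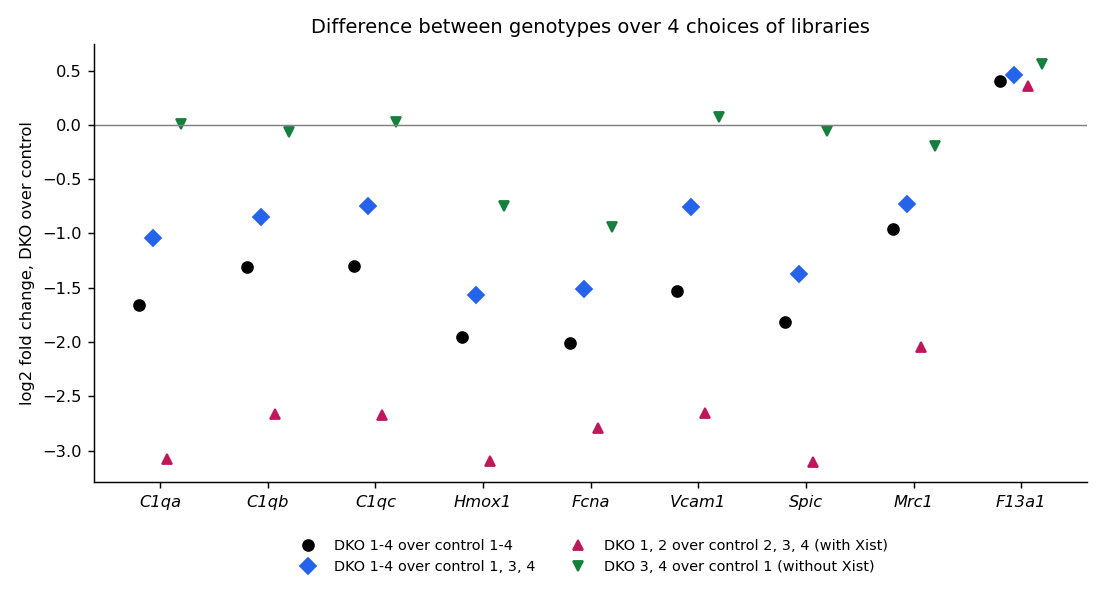
Log2 fold change of DKO over control (vertical axis) for the 9 genes fitted, over 4 choices of libraries: all 8, without control 2, the 5 libraries with Xist and the 3 without it. For the C1q genes, Vcam1 and Spic the values spread from near 0 without Xist to below -2.6 with it, Hmox1 and Fcna lie below 0 in every choice, and F13a1 lies above 0 in every choice.

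The same pattern was looked for in 35 other genes of resident macrophages, a list that was likewise put together with earlier results known. Of these, 29 passed the filter, 25 of them had a log2 fold change below 0, and the median was -0.72. After Benjamini-Hochberg correction, edgeR's quasi-likelihood test called 4 lower and 0 higher, with 9 at an unadjusted p under 0.05. DESeq2 called 5, edgeR's likelihood ratio test 4 and limma-voom 3, all lower. Over all 12714 genes, the quasi-likelihood test called 1.93% lower and 2.65% higher. These shares are the background for this list and for the lists below. As the list was put together with earlier results known, nothing is read from its count. The summed level of the list, in which *Lyz2* and *Ctsb* weigh most, was 1110 to 1710 CPM in DKO and 1290 to 1860 CPM in control libraries.

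*Maf*, a transcription factor of resident macrophages, was at 3.79, 3.51, 6.51 and 5.92 CPM in DKO 1 to DKO 4, against 10.8, 12.3, 11.1 and 9.23 CPM in control 1 to control 4 (log2 fold change -1.14, standard error 0.22, adjusted p = 0.0181 in edgeR's quasi-likelihood test). *Cd5l*, which encodes a secreted protein of tissue macrophages, had 0, 2, 12 and 6 counts in the DKO and 62, 86, 48 and 24 counts in the control libraries (log2 fold change -3.42, adjusted p = 0.0354 in edgeR's quasi-likelihood test). *Timd4*, a receptor for dead cells, had 6, 4, 4 and 0 counts in the DKO and 18, 50, 24 and 20 counts in the control libraries. It was at most 0.139 CPM in DKO and at least 0.470 CPM in control libraries (adjusted p = 0.0411 in edgeR's quasi-likelihood test). With DKO counts this near the floor of 3 counts, the size of the difference in *Timd4* and *Cd5l* is beyond what the depth can compare. *Aif1*, a marker protein of macrophages, was at 2.39 ± 0.774 CPM in DKO and 6.28 ± 2.90 CPM in control cells (SD, n = 4 each, adjusted p = 0.0470 in edgeR's quasi-likelihood test).

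These 4 genes did not overlap between the groups, as was the case for 13.8% of all genes tested. They had been picked by their calls in this same comparison, so nothing is read from the lack of overlap. Their calls rested on few libraries. *Maf* missed the threshold without DKO 1, *Cd5l* kept it only without DKO 3 or control 1, *Timd4* only without control 1, and *Aif1* only without control 1 or control 3. Of the 25 genes of the list that were fitted but not called, 21 lay below 0. They reached from -1.34 for *Fcgr1*, -1.30 for *Axl*, -1.16 for *Apoe* and -1.12 for *Slc40a1*, an iron exporter, to -0.02 for *Il18bp*. The 4 above 0 were *Trf* (0.07), *Ctsb* (0.09), *Mpeg1* (0.21) and *Gpnmb* (1.09). These genes and the next were picked for naming after their values had been seen. *Adgre1*, which encodes F4/80, had 0.370, 0.366, 0.620 and 1.18 CPM in DKO 1 to DKO 4 and 1.20, 2.60, 0.750 and 0.920 CPM in control 1 to control 4. *Csf1r*, the receptor for the macrophage growth factor, was at 1.51 ± 0.356 CPM in DKO and 1.55 ± 0.230 CPM in control cells (SD, n = 4 each), and the 6 genes of the list that were not fitted, *Vsig4*, *Mertk* and *Siglec1* among them, stayed at or below 0.523 CPM in DKO and 0.716 CPM in control libraries.

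In lists of other genes from the same pathways, 1 gene passed the threshold. Of 19 genes for heme breakdown and iron export, all were tested, 13 lay below 0 with a median of -0.06, and edgeR's quasi-likelihood test called 0, as did DESeq2, the likelihood ratio test and voom, with 2 at an unadjusted p under 0.05. *Hmox2*, the heme oxygenase made in most cells, was at 226 ± 19.3 CPM in DKO and 226 ± 8.74 CPM in control cells (SD, n = 4 each). The ferritin chain genes *Ftl1* and *Fth1* had log2 fold changes of -0.14 and 0.17 (standard errors 0.09 and 0.12).

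Of 26 other complement genes, 15 were tested, 9 lay below 0 with a median of -0.05, and edgeR's quasi-likelihood test called 0, with 4 at an unadjusted p under 0.05. DESeq2, the likelihood ratio test and voom each called 1 higher. *Masp1*, *Mbl1* and *Mbl2* had no read in any library. *Cd93*, once taken for a C1q receptor and carried by early B cells, was at 173 ± 16.0 CPM in DKO and 210 ± 38.2 CPM in control cells (SD, n = 4 each), and *C1qbp*, a mitochondrial protein that binds C1q, at 134 ± 8.80 CPM in DKO and 141 ± 28.1 CPM in control cells.

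Of 17 other scavenger and lectin receptors, 8 were tested, 6 lay below 0 with a median of -0.42, and *Scarb1*, the receptor for high density lipoprotein, was the 1 called by edgeR's quasi-likelihood test. It was higher, at 63.5 ± 5.43 CPM in DKO and 45.4 ± 2.17 CPM in control cells (SD, n = 4 each, log2 fold change 0.48, standard error 0.09, adjusted p = 0.0175), and missed the threshold without DKO 2 or without DKO 3. *Cd36* was at 10.1 ± 5.75 CPM in DKO and 14.4 ± 7.21 CPM in control cells (SD, n = 4 each).

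Markers of other cells varied between the libraries too. The 16 genes of neutrophils and granules summed to 347, 690, 2559 and 2070 CPM in DKO 1 to DKO 4 and to 2968, 477, 605 and 3259 CPM in control 1 to control 4. They were thus low in DKO 1 and DKO 2, as the macrophage genes were, but also low in control 2, where the macrophage genes were highest. All 16 were tested, 12 lay below 0, and edgeR's quasi-likelihood test called 0, with 0 at an unadjusted p under 0.05 and 0 in the other 3 tools. Their most abundant genes *S100a9*, *S100a8* and *Ngp* were at 446 ± 340, 397 ± 323 and 212 ± 134 CPM in DKO cells, against 595 ± 493, 478 ± 386 and 295 ± 263 CPM in control cells (SD, n = 4 each). Of the monocyte markers, *Ly6c2* was at 12.9 ± 9.005 CPM in DKO and 17.4 ± 14.5 CPM in control cells and *Ifitm6* at 10.3 ± 9.39 CPM in DKO and 8.37 ± 6.51 CPM in control cells (SD, n = 4 each), both within the spread of the mice.

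The sum of the 12 genes of megakaryocytes and platelets, by contrast, shared the peak in control 2. It was 8.71, 8.97, 13.7 and 13.1 CPM in the DKO and 10.9, 67.3, 8.11 and 9.59 CPM in the control libraries. *Ppbp* and *Pf4* together made up most of this peak, and not every gene of the list shared it. *Gp5* was at 3.24 CPM in control 2, below control 1 at 5.17 CPM and control 3 at 3.75 CPM. *Ppbp*, a platelet chemokine, had 1168 counts in control 2 and at most 98 in any other library, and *Pf4* had 748 counts there and at most 148 elsewhere. Of the 5 genes of this list that were tested, 3 lay below 0, and edgeR's quasi-likelihood test called 0, as did the other 3 tools, with 1 at an unadjusted p under 0.05.

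Of 12 erythroid markers 8 were tested and all 8 lay below 0, with a median of -0.61 and sums of 22.6 to 54.6 CPM in DKO and 47.4 to 131 CPM in control libraries, highest in control 1. The hemoglobin genes *Hba-a1*, *Hba-a2*, *Hbb-bs* and *Hbb-bt* had no read in any library. *Alas2*, which starts heme synthesis in red cell precursors, was at 17.1 ± 6.99 CPM in DKO and 46.4 ± 29.5 CPM in control cells (SD, n = 4 each, adjusted p = 0.0690 in edgeR's quasi-likelihood test). None of the 8 was called by edgeR's quasi-likelihood test or voom, 1 was called lower by DESeq2 and by the likelihood ratio test, and 1 had an unadjusted p under 0.05.

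Markers of stroma and endothelium, the cells that share *Vcam1*, summed to 55.2 to 67.6 CPM in DKO and 45.1 to 72.4 CPM in control libraries. *Pecam1* weighs most in this sum, so it says little about the other genes of the list. Of 13, 6 were tested, and 5 of these lay below 0, all but *Pecam1*, with a median of -0.31 over the 6. *Cxcl12*, the chemokine that holds B cell progenitors in the marrow, was called lower, at 1.55 ± 0.573 CPM in DKO and 4.30 ± 1.31 CPM in control cells (SD, n = 4 each, log2 fold change -1.47, standard error 0.33, adjusted p = 0.0322 in edgeR's quasi-likelihood test). The call was kept only without DKO 4 or control 1 among the fits that left out 1 mouse. *Pecam1* was at 53.9 ± 4.68 CPM in DKO and 44.7 ± 9.44 CPM in control cells and *Emcn* at 2.44 ± 1.45 CPM in DKO and 3.18 ± 1.28 CPM in control cells (SD, n = 4 each). The part that any of these other cells had in the values of the macrophage genes was not tested.

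**Figure D4:**
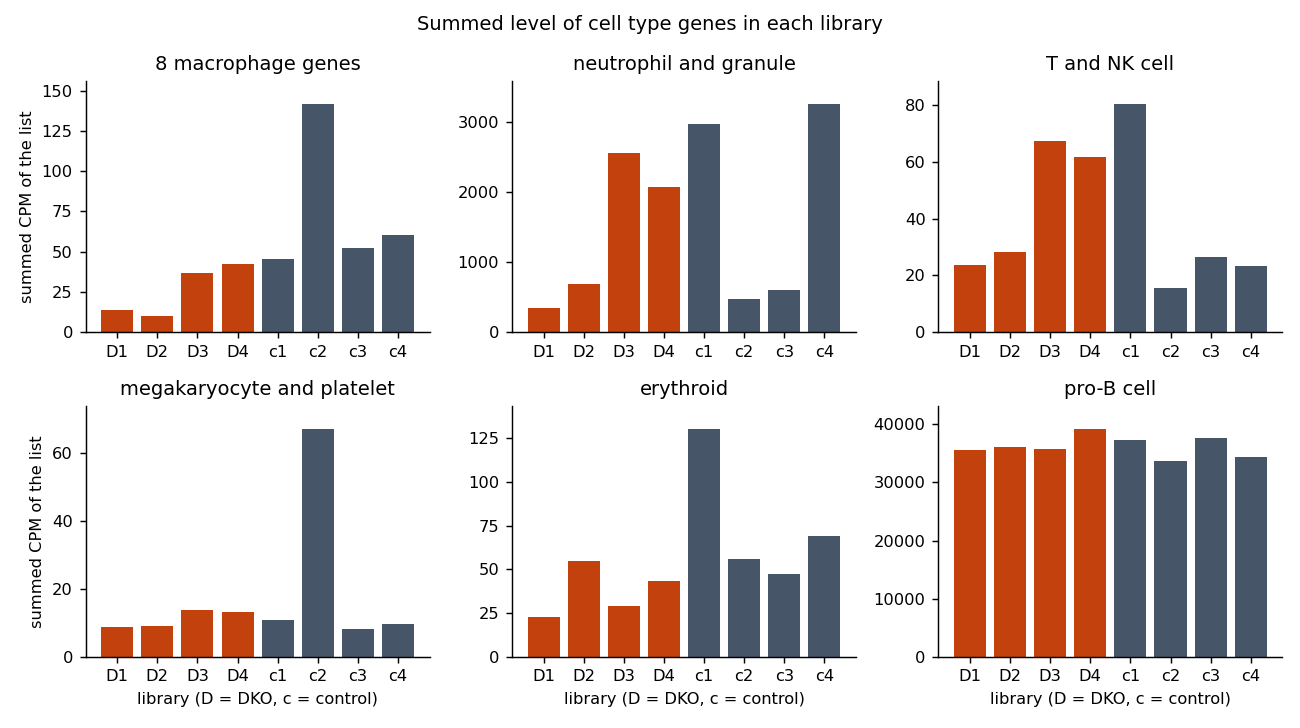
Summed CPM (vertical axes from 0, a different scale per panel) of the 8 macrophage genes without F13a1 and Marco and of 5 marker lists in each library; D1 to D4 are DKO and c1 to c4 control libraries. The macrophage and the platelet sums peak in c2 at 142 and 67.3 CPM, the neutrophil sum is low there at 477 CPM, and the pro-B sum stays between 33600 and 39300 CPM.

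The windows around the transcription starts of the genes (250 bases before to 50 after, RefSeq GRCm38.p6) were searched for GAGGAA on either strand, the core that the macrophage factor PU.1 and its relative encoded by *Spic* are known to bind. Such a window was given for 7 of the 10 genes, and 6 of them held the motif, all but *Spic*, as did 28.3% of 32851 windows of all genes, where a gene with several starts counts several times. The windows of *C1qb* and *C1qc*, whose ratio was steady, and of *F13a1*, which moved apart from them, are shown in part, with the motif or its complement in capitals.
C1qb: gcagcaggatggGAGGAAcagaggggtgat
C1qc: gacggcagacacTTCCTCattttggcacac
F13a1: ttgaagctacagGAGGAAgagaggataaga
The windows lie on the minus strand, *C1qb* at chr4:136886151-136886450, *C1qc* at chr4:136892865-136893164 and *F13a1* at chr13:37050195-37050494. The printed motifs start at position -30, -193 and -66 from the start site. *Spic*, whose levels ran with those of the C1q genes, thus lacked these letters in its window, and *F13a1*, whose levels did not, held them. They are a description and no evidence of binding.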

How the data were processed

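Sorted pro-B cells of 8 mice (4 DKO, 4 control, from the labels) were sequenced as paired ends of SMART-seq cDNA. The authors trimmed single end reads with Trimmomatic, aligned them with STAR and deposited raw counts per gene from featureCounts (versions and use of strand not given in the sources used here). Submitters' processing notes name GRCm39, but 99.4% of 24086 genes matched by symbol overlap their position in RefSeq GRCm38.p6, so coordinates are given as GRCm38. Of the deposited counts from 1 to 4, 78.7% were even, and of those from 1000 to 9999, 51.4%, so a count may not be 1 independent molecule and intervals cover counting error only.

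Low genes were removed (filterByExpr, minimum count 10 and total 15), libraries were scaled by TMM, and the genotype was fitted in R 4.3.3 with edgeR 4.0.16 (quasi-likelihood test, Benjamini-Hochberg, threshold 0.05, prior count 0.125). The code was tested on simulated data. Every pair of replicates differed by more than sampling noise. P-values measure the spread between mice. The members and lists were chosen with earlier results of these data known. Named are the 10 genes. In each other list, the genes past the threshold are named (at most 6), and where fewer than 3 passed, the most abundant up to 3. The 10 genes most like *C1qa*, *Dleu2*, *Mir16-1* and *Xist* complete the names. Examples were taken from these. The text also names uncalled genes of the macrophage list (*Adgre1*, *Csf1r*, *Lyz2* and others), chosen after their values were seen. Alternatives were other scalings and filters, DESeq2 1.42.0, edgeR's likelihood ratio test, limma-voom (limma 3.58.1), a block for the replicate number, fits without each mouse in turn, and the *Xist* classes. Those using the libraries without *Xist*, *Xist* as a covariate, or a sum without *F13a1* were chosen after seeing the data. The list of monocyte markers as a whole is not reported here.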

Additional observations from a re-analysis of the deposited data

Results flagged for a closer look

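Within each group of 4 libraries, the level of each of the 9 genes and the sum of each marker list were examined for a library far from the other 3, as measured by its gap to the nearest relative to the range of the group (by Dixon's 95% critical value). Of 46 groups, 8 had such a library, where chance gives about 1 in 20 for independent groups. These groups share their libraries and many of the genes run together, so the 8 are not separate events. Nothing is read from their number. Of the 8, 4 were macrophage genes in control 2. *C1qc* was at 30.8 CPM there, against 12.4 CPM in the next library, and *Fcna* at 16.9 CPM, against 7.45 CPM. *Vcam1* was at 14.98 CPM, against 4.36 CPM, and *Mrc1* at 1.96 CPM, against 1.20 CPM.

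The sum of the markers of megakaryocytes and platelets also stood apart in control 2, at 67.3 CPM, against 10.9 CPM in the next control. Control 1 stood apart for the markers of T and NK cells, at 80.4 CPM, against 26.6 CPM, and for those of plasma cells, at 2284 CPM, against 1616 CPM. In this plasma cell sum, *Mzb1* alone was at 2048 CPM in control 1, and it was at 1030 CPM or more in every library. In the DKO group, the pro-B cell markers stood apart in DKO 4, at 39270 CPM, against 36090 CPM. No cause of these values was tested.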

How the results depend on the processing

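No called result changed direction under any of the alternatives. By rules that differed between kinds of result, 1025 of 1139 alternative values were taken as the same. Counts of called genes had to stay within a set ratio, and for *Hmox1*, *Fcna* and *F13a1* a lost call did not by itself count as a change. Of 20 alternatives, *Hmox1* was past the threshold in 12, *Fcna* in 16 and *F13a1* in 11. The count of genes called across the table depended on the tool. It was 674 higher and 568 lower with DESeq2, and 519 higher and 461 lower with the likelihood ratio test, against 337 and 245 in the quasi-likelihood test. It ranged from 142 to 493 higher and from 84 to 398 lower when 1 mouse was left out. With the *Xist* class as a covariate it was 551 higher and 497 lower, and in libraries without *Xist* 669 were lower. The replicate numbers do not pair the mice (correlations of the deviations of same-numbered libraries of -0.209, 0.06, -0.196 and -0.04), so the samples share only a number. With the replicate number as a block, 94 genes were higher and 54 lower, 0 of the other resident macrophage genes were called (9 at an unadjusted p under 0.05), and *Hmox1*, *Fcna* and *F13a1* were not called. The count of these other macrophage genes called lower was 2 at a minimum count of 30, 8 in libraries with *Xist* and 1 in those without, where 1 was also called higher, and 0 to 4 without 1 mouse. The log2 ratio of the sum of the 10 genes was 0.19 in libraries without *Xist*, -1.54 with *F13a1* left out, and between -0.641 and -0.186 without 1 mouse. The ratio of *C1qb* to *C1qa* stayed between 2.59 and 2.81 without 1 mouse. The cause of these differences was not tested. *Marco* at 6 counts in all, and genes near the floor of 3 counts, are beyond what the depth can compare.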

Other observations

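Lists of further cell types, which share no gene with the 10, were also read in the same libraries. Markers of dendritic cells (6 of 12 tested), T and NK cells (6 of 10 tested), plasma cells (6 of 6) and eosinophils, basophils and mast cells (7 of 8) gave 0 calls in edgeR's quasi-likelihood test, with 1, 1, 2 and 1 genes at an unadjusted p under 0.05. Of these lists, DESeq2 called 1 dendritic cell gene higher and 1 T and NK cell gene lower, the likelihood ratio test 1 T and NK cell gene lower and 1 gene of the last list higher, and voom 0. The summed level of the T and NK cell markers was 23.5, 28.1, 67.4 and 61.6 CPM in DKO 1 to DKO 4, against 80.4, 15.6, 26.6 and 23.3 CPM in control 1 to control 4. They were thus highest in the 3 libraries without *Xist*. Of the 15 pro-B cell markers, all tested, *Il7r*, the receptor chain for the growth factor of these cells, was at 456 ± 27.9 CPM in DKO and 236 ± 42.3 CPM in control cells (SD, n = 4 each, adjusted p = 0.00266). *Kit*, the receptor for stem cell factor, was at 41.5 ± 8.95 CPM in DKO and 17.9 ± 4.68 CPM in control cells (SD, n = 4 each, adjusted p = 0.00810), both in edgeR's quasi-likelihood test, and the other 13 were not called.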
